A study of Chlorocebus sabaeus with 6 samples.

Results

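The transcripts described here are those of LGALS3BP, a secreted glycoprotein that binds galectins, and of its binding partners LGALS1 and LGALS3. Their members are 5 of the 51520 rows in a table of RNA levels from COS-1 cells, given as FPKM, that is fragments per kilobase of transcript relative to the size of the library. Of these, 3 rows lie on chromosome 16 between 70941895 and 70947710, an interval that was picked because its level fell and because LGALS3BP is expected there. The other members were picked by accession: ENSP00000215909_1 for LGALS1 and ENSP00000254301_1 for LGALS3. The row ENSP00000262776_1, inside the interval, carries the accession taken for LGALS3BP.

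COS-1 is an established African green monkey (Chlorocebus sabaeus) kidney line transformed with simian virus 40 sequences. The study compared 3 libraries of control cells, which got no treatment, with 3 libraries of cells treated with lentivirus. Cultures of both groups went without serum for 14 h and were then stimulated with EGF, epidermal growth factor, for 90 min at 2 ng/ml, so unstimulated cells are in neither group. The title names SHOC2, a scaffold of the RAS to ERK1/2 cascade. The content of the lentivirus, and whether the treated cells are 1 clone, are not stated in the labels.

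Galectins are small lectins that bind galactose-containing sugars on glycoproteins. They are made in the cytosol, leave the cell without a signal peptide, and crosslink receptors and matrix proteins at the cell surface. The LGALS1 product acts as a dimer, and the LGALS3 product joins a carbohydrate-binding domain to a flexible tail through which it forms oligomers. LGALS3BP carries a scavenger receptor cysteine-rich domain and many sugar chains, is secreted, and binds both galectins as well as integrins, fibronectin and collagens; its gene is known to respond to interferon in many cell types.

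The gene names come from the accessions by which the members were picked, since the table pairs no accession with a symbol and 0 of its 51520 accessions matched an entry of the RefSeq genes (assembly mChlSab1.0.hap1). The RefSeq table places LGALS3BP, LGALS1 and LGALS3 on chromosomes with the same numbers as the 3 member rows. There LGALS3BP lies between CEP295NL and CANT1, LGALS1 next to NOL12, and LGALS3 next to DLGAP5. Positions are as deposited, on a genome build that the sources used here do not name. Since no accession could be paired with a symbol, the other galectins, the matrix partners of LGALS3BP and markers of the labelled cell type were not analysed here.

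The row taken for LGALS3BP stood above the rows taken for LGALS1 and LGALS3 in every library. Its level was lower in each of the 3 lentivirus libraries than in any control library. The row ENSP00000262776_1 (chromosome 16, 70942207 to 70947710) overlaps no other row. It stood at 129, 116 and 136 FPKM in control replicates 1, 2 and 3 and at 41.8, 43.0 and 39.8 FPKM in lentivirus replicates 1, 2 and 3. Every control library was above every lentivirus library, and the spread within each group was small against the gap. The group levels were 126.9 ± 9.83 and 41.5 ± 1.59 FPKM (SD, n = 3 per group), a 3.06-fold lower mean and a log2(FPKM + 1) change of -1.59. The interval was picked for this fall, so the values are a description and no test is given. In bulk RNA, less LGALS3BP message per cell and fewer cells that make it cannot be told apart.

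A second row of the interval, JK095726.1_1 (chromosome 16, 70941895 to 70942100), lies 106 bases from the LGALS3BP row and fell alongside it. It stood at 85.7, 80.8 and 78.1 FPKM in the control libraries and at 25.1, 34.6 and 29.6 FPKM in the lentivirus libraries. The groups were again apart, with 81.6 ± 3.86 against 29.7 ± 4.79 FPKM (SD, n = 3) and a log2(FPKM + 1) change of -1.44. The table gives no strand, so whether this short row belongs to the LGALS3BP transcript is not known from it. Its level relative to the LGALS3BP row was 0.666, 0.695 and 0.576 in control and 0.599, 0.806 and 0.742 in lentivirus libraries, and these ratios overlapped between the groups.

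The third row of the interval, JK114853.1_1 (70941897 to 70941990), lies wholly inside JK095726.1_1 and was at 0.00504 FPKM or less in every library. It did not reach the mean of 1 FPKM set for testing, and it shares its bases with the longer row, so its value says little by itself. Summed over its 3 rows, the interval held 208.5 ± 9.84 FPKM in control and 71.3 ± 5.63 FPKM in lentivirus libraries (SD, n = 3), a log2(FPKM + 1) change of -1.54. The nearest row on each side of the interval differed little between the groups. The row before it, 76491 bases away, was at 0.505 ± 0.0617 and 0.472 ± 0.129 FPKM (control and lentivirus, SD, n = 3). That row is below the mean of 1 FPKM set for testing, so it says little by itself. The row after the interval, 15381 bases away, was at 22.8 ± 2.07 and 23.7 ± 1.93 FPKM (control and lentivirus, SD, n = 3).

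**Figure D1:**
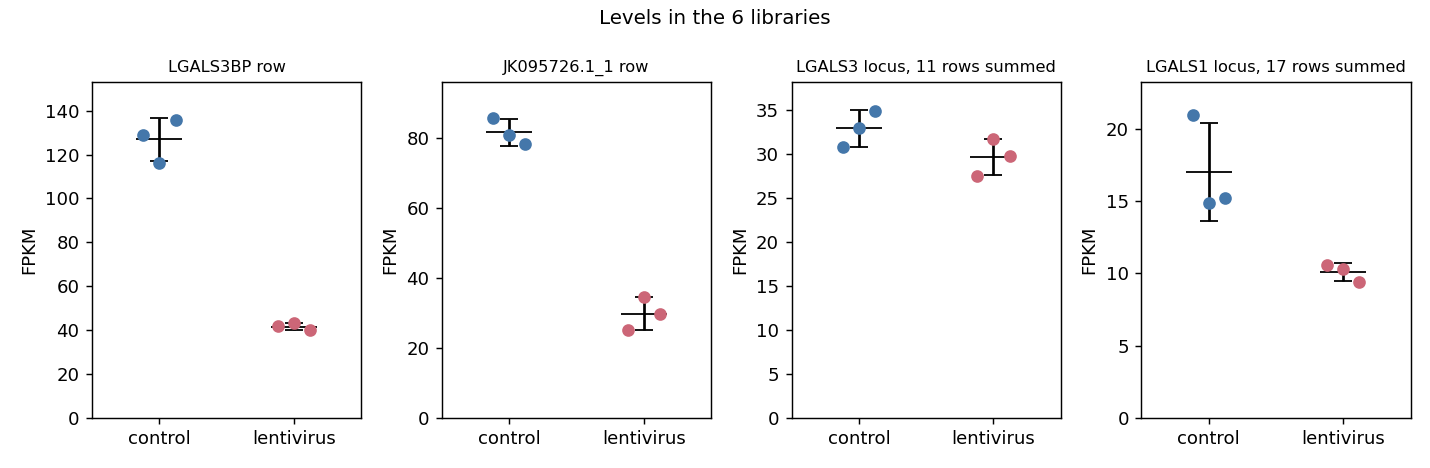
FPKM (vertical axes, each from 0) of the LGALS3BP row, JK095726.1_1, and the LGALS3 and LGALS1 loci in control and lentivirus libraries. The LGALS3 and LGALS1 loci are sums over their 11 and 17 rows. Points are libraries, and the horizontal lines and bars are the mean and SD of 3; the groups are apart in all but the LGALS3 panel.

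The rows of the accessions taken for LGALS1 and LGALS3 were below 2 FPKM in every library, and at both positions the table holds many overlapping rows. The LGALS1 row ENSP00000215909_1 (chromosome 19, 20380525 to 20383247) was at 1.58, 0.386 and under 0.0001 FPKM in the control libraries. Its highest value in a lentivirus library was 0.000703 FPKM. The groups overlapped, and the mean of 0.329 FPKM over the 6 libraries was below the filter of 1 FPKM. The LGALS3 row ENSP00000254301_1 (chromosome 24, 32320400 to 32328184) was at 1.89, 0.000610 and 0.979 FPKM in control and at 0.0000925, 1.34 and 0.659 FPKM in lentivirus libraries. Its groups overlapped too, and its mean of 0.812 FPKM was also below the filter. Thus 2 of the 5 members, both on chromosome 16, passed the filter, and the other 3 were not tested as single rows. With no filter, limma with Benjamini-Hochberg adjustment over all rows gave an adjusted p of 0.593 for the LGALS1 row and 1.0 for the LGALS3 row.

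Each galectin was therefore described by a locus, the sum of all rows linked to its own by overlap, directly or through other rows. The LGALS1 locus (chromosome 19, 20379189 to 20383305) held 17 rows, and the LGALS3 locus (chromosome 24, 32311376 to 32328320) held 11. The LGALS3 locus includes a row from 32328205 to 32328320 that overlaps other rows of the locus but not the LGALS3 row. The LGALS1 row held at most 7.56% of its locus in any library, and the LGALS3 row at most 6.12%. How a locus was divided among its rows varied from library to library within a group. At LGALS1 the leading row was a different one in each of the 3 control libraries, and the same 3 rows led in the lentivirus libraries; the leading row held 46.9% to 66.2% of the locus. At LGALS3 the row from 32323342 to 32328320 led in all 6 libraries with 37.9% to 52.8% of the locus, while 1 other row, from 32311399 to 32325715, was at 7.95, 0.00569 and 6.84 FPKM in the lentivirus libraries and at most 0.0619 FPKM in control libraries. That leading LGALS3 row was at 13.4, 17.4 and 13.3 FPKM in control and at 11.3, 13.9 and 13.3 FPKM in lentivirus libraries, so its groups overlapped. It was the 1 row of the LGALS3 locus at 1 FPKM or more in every library, and the LGALS1 locus had 0 such rows. Under 0.1 FPKM in every library were 8 of the 17 rows at LGALS1 and 4 of the 11 at LGALS3. Of the 4 rows at LGALS1 and 5 at LGALS3 with a mean of at least 1 FPKM, limma called 0, and 0 had an unadjusted p under 0.05. Over all 28434 rows 6.48% were called and 24.2% had such a p. The 9 rows come from the LGALS1 and LGALS3 loci alone, share bases, and most varied widely within a group. The 0 of 9 is therefore not read against those shares and tells little about either locus.

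**Figure D2:**
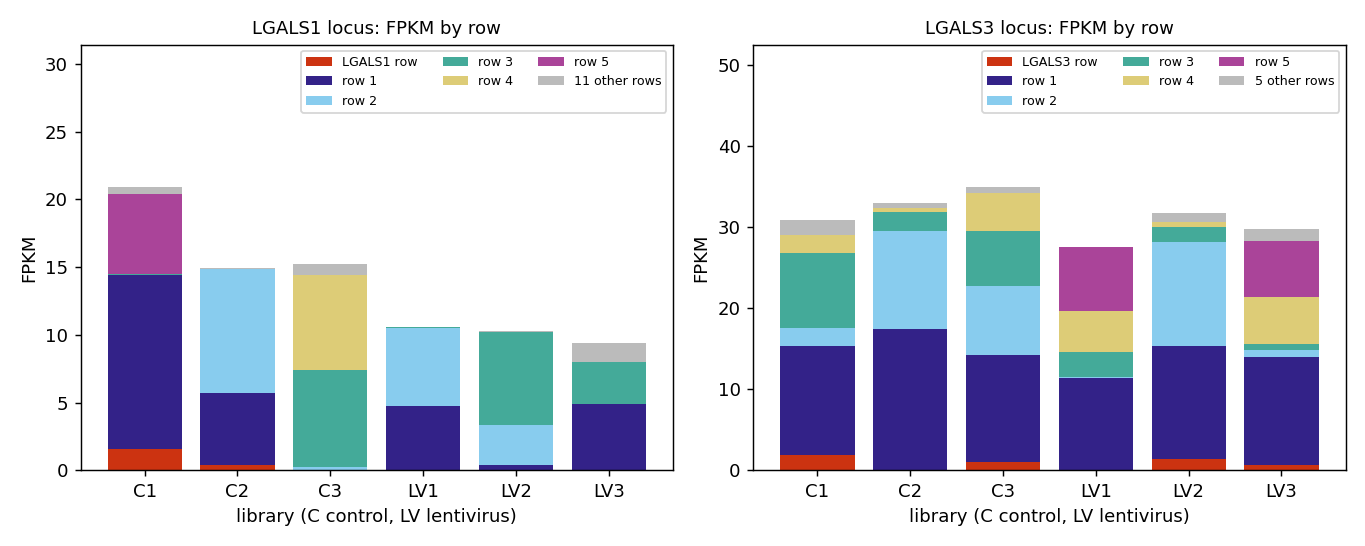
FPKM of each row (stacked, vertical axis from 0) in the LGALS1 and LGALS3 loci, by library, with the rows of the named accessions in red, the 5 rows of highest mean in colour and the rest in grey; row numbers order rows by mean within each panel. The split among rows differs between libraries of 1 group, while the height of the bars varies less.

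The sums were steadier than their parts. The within-group SD of log2(FPKM + 1) was 0.19 for the LGALS1 sum, against a median of 1.60 for its 4 rows above the filter, and 0.093 for the LGALS3 sum, against a median of 1.04 for its 5 rows. Sums over overlapping rows were fitted for the whole table, which gave 16073 loci with a mean of at least 1 FPKM. In that fit, limma with Benjamini-Hochberg adjustment called 10.6% of loci lower and 19.5% in either direction at an adjusted p under 0.05.

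The LGALS1 locus fell in the fit over all loci. That fit was planned for the whole table, but reading LGALS1 and LGALS3 from it was decided after their rows had failed the filter. The LGALS1 locus stood at 21.0, 14.9 and 15.2 FPKM in control replicates 1, 2 and 3 and at 10.6, 10.3 and 9.41 FPKM in lentivirus replicates 1, 2 and 3. Every control library was above every lentivirus library, and control replicate 1 stood above the other control libraries. The means were 17.0 ± 3.40 and 10.1 ± 0.624 FPKM (SD, n = 3), 1.69-fold lower, with a log2(FPKM + 1) change of -0.68 (SE 0.13). Its adjusted p by limma was 0.0183. A two-sided exact permutation test gave p = 0.10, the floor for groups of 3. The call was lost without lentivirus replicate 2 (log2 change -0.70, limma adjusted p = 0.0577) and without lentivirus replicate 3 (-0.64, limma adjusted p = 0.0608).

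The sum also depended on single rows that were high in 1 library. The row from 20379198 to 20380579 was at 5.91 FPKM in control replicate 1 and below 0.01 FPKM in the other libraries, and the row from 20379236 to 20383305 was at 7.02 FPKM in control replicate 3 and below 0.01 FPKM in the others. Each was left out in turn, a step chosen after the values were seen. Without the first, LGALS1 was at 15.1, 14.9 and 15.2 FPKM in control against the same lentivirus values, with a log2(FPKM + 1) change of -0.53 (limma adjusted p = 0.00402). Without the second it was at 21.0, 14.9 and 8.23 FPKM in control, so that control replicate 3 fell below every lentivirus library, and the call was lost with a change of -0.41 (limma adjusted p = 0.374). The call thus needs the sum to hold the second of these rows. That row starts at the same base as the row from 20379236 to 20383301. In control replicate 3 they held 46.0% and 46.9% of the locus. Leaving it out removes FPKM that may have been divided between nearly identical rows. The row from 20379198 to 20380579 held 28.2% of the locus in control replicate 1 and also shares bases with other rows. Leaving that row out may remove divided FPKM too. Neither the kept call nor the lost call therefore tells whether the LGALS1 locus changed.

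The LGALS3 locus did not pass the test. It stood at 30.9, 33.0 and 35.0 FPKM in control replicates 1, 2 and 3 and at 27.6, 31.7 and 29.8 FPKM in lentivirus replicates 1, 2 and 3. The groups overlapped, since lentivirus replicate 2 was above control replicate 1. The means were 32.9 ± 2.05 and 29.7 ± 2.09 FPKM (SD, n = 3), a log2(FPKM + 1) change of -0.15 (SE 0.071). Its adjusted p by limma was 0.206, and a two-sided exact permutation test gave p = 0.20.

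The LGALS3BP row and the 2 galectin locus sums held 1 order of level per kilobase in both groups. In every library LGALS3BP was highest, the LGALS3 sum next and the LGALS1 sum lowest. The single galectin rows did not keep that order: in control replicate 2 the LGALS1 row was at 0.386 and the LGALS3 row at 0.000610 FPKM. Whether the sums give the levels of the genes is not known from the table. In the control libraries LGALS3BP was above 86.8% to 88.2% of the 16073 loci, LGALS3 above 66.0% to 68.5% and LGALS1 above 49.5% to 57.4%. In the lentivirus libraries the same shares were 71.3% to 72.5%, 63.5% to 66.3% and 39.6% to 42.2%. The short locus of JK095726.1_1 lay between LGALS3BP and LGALS3 in the control libraries, at 81.6 FPKM, but in the lentivirus libraries its 29.7 ± 4.79 FPKM did not differ from the 29.7 ± 2.09 FPKM of LGALS3 beyond their spread.

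Ratios of 2 genes within a library do not depend on how libraries were scaled. The ratio of LGALS3BP to LGALS3 was 4.17, 3.53 and 3.88 in control and 1.52, 1.35 and 1.34 in lentivirus libraries. That of LGALS3BP to LGALS1 was 6.14, 7.80 and 8.90 in control and 3.94, 4.17 and 4.23 in lentivirus libraries. Both ratios were apart between the groups, and as they contain the row picked for its fall they are descriptions. The ratio of LGALS1 to LGALS3 contains no such row. It was 0.679, 0.452 and 0.436 in control and 0.385, 0.325 and 0.316 in lentivirus libraries, a log2 change of -0.59. The groups were apart, and the exact permutation p was 0.10, two-sided, the smallest this design allows; it was the 1 ratio tested. That test could not have passed 0.05 with 3 libraries a group, so whether the changes of LGALS1 and LGALS3 differ is not settled by it.

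**Figure D3:**
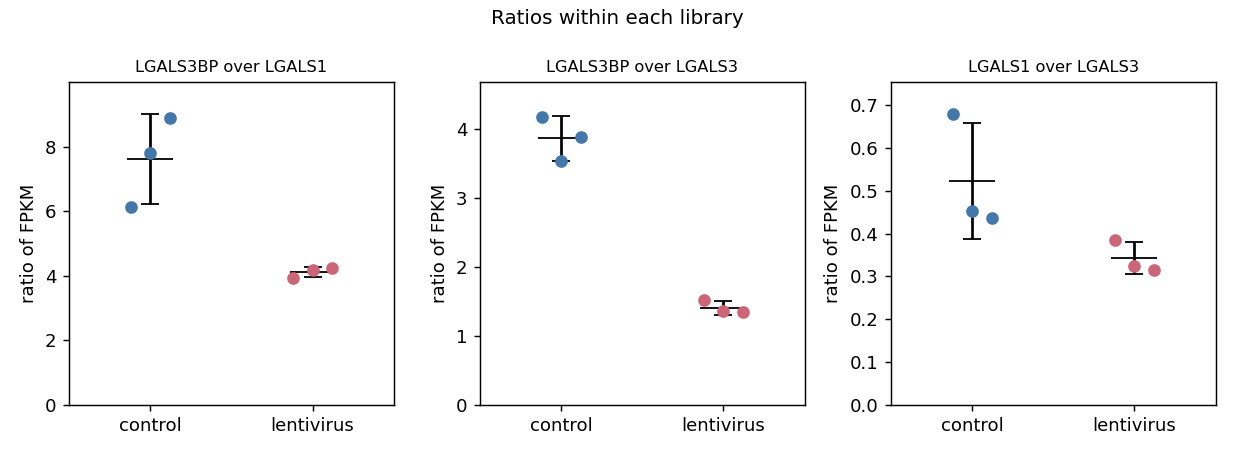
Ratios of FPKM within each library (vertical axes from 0) for LGALS3BP over LGALS1, LGALS3BP over LGALS3 and LGALS1 over LGALS3, with galectins as locus sums. Points are libraries, and lines and bars are the mean and SD of 3; all control points lie above all lentivirus points in each panel.

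Against all loci, the changes of the members stood at different places. The median change of the 16073 loci was -0.0056 on the log2(FPKM + 1) scale, with the middle 90% between -0.43 and 0.37. Only 0.492% of loci were lower by at least 1 log2, and LGALS3BP and the short locus beside it are among them by the way they were picked. Below the change of LGALS3BP lay 15 loci, and below that of the short locus 20. The change of the LGALS1 locus was undercut by 238 loci (1.48%) and that of the LGALS3 locus by 4035 (25.1%). Groups apart and lower, as at LGALS3BP and LGALS1, were seen in 21.1% of all loci. Among the 28434 single rows above the filter, 3.59% were called lower and 16.5% had groups apart and lower; the LGALS3BP row and JK095726.1_1 are read against neither share, since they were picked on this contrast.

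**Figure D4:**
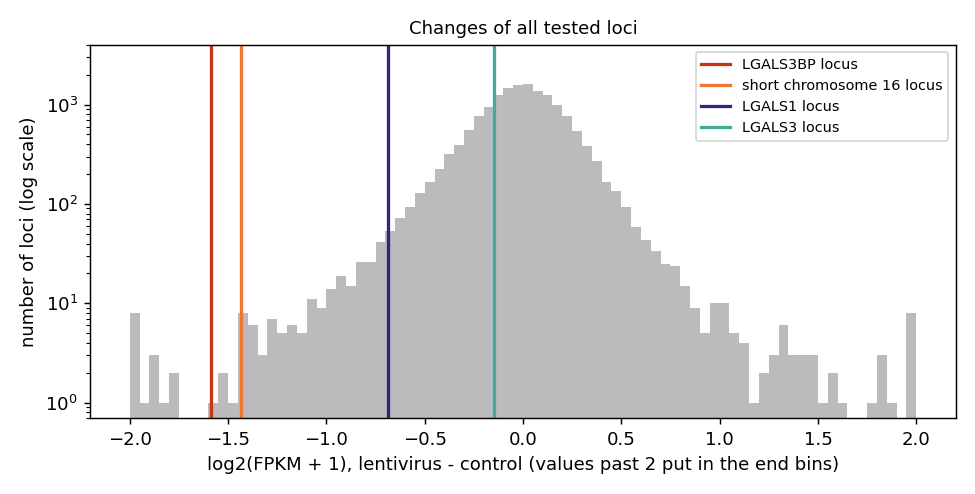
Number of loci (vertical axis, log scale) by change in log2(FPKM + 1), lentivirus minus control (horizontal axis, bins of 0.05), for all 16073 tested loci, with vertical lines at the LGALS3BP, short chromosome 16, LGALS1 and LGALS3 loci. The lines of the LGALS3BP and short loci stand in the sparse left tail, at -1.59 and -1.44, that of LGALS1 at -0.68 and that of LGALS3 at -0.15.

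The loci around LGALS3BP had small changes in both directions. Of the 10 tested loci on each side of the chromosome 16 interval, 0 were called lower and 1 higher by limma. Over all loci 10.6% were called lower and 19.5% either way. At an unadjusted p under 0.05 by limma, 1 was lower and 4 higher, against 34.4% of all loci either way. The counts of these 20 loci were not tested against those shares. The changes of the 20 loci ran from -0.45 to 0.25 with a median of 0.033 on the log2(FPKM + 1) scale. The stretch reaches 715 kb before and 1033 kb after the interval. The 20 loci around LGALS1 had a median of -0.095 and a range of -0.61 to 0.25. Of these 4 were called lower and 0 higher by limma, against the same 10.6% called lower over all loci. At an unadjusted p under 0.05, 7 were lower and 1 higher. Of the 20, 13 had a change below 0, against 51.1% of all loci, and this difference was not tested. The lowest of these neighbours, from 20271398 to 20273850, had a change of -0.61, close to the -0.68 of LGALS1 and lower than the -0.53 that LGALS1 had without control replicate 1. Around LGALS3 the median of 20 loci was 0.11, with 2 called lower and 1 higher, and 4 of them had a lower change than LGALS3 itself. At an unadjusted p under 0.05, 3 of them were lower and 5 higher. The closest tested locus before LGALS3, from 32293518 to 32293917, fell from a mean of 7.37 to 3.52 FPKM (log2 change -0.89, limma adjusted p = 0.0196).

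**Figure D5:**
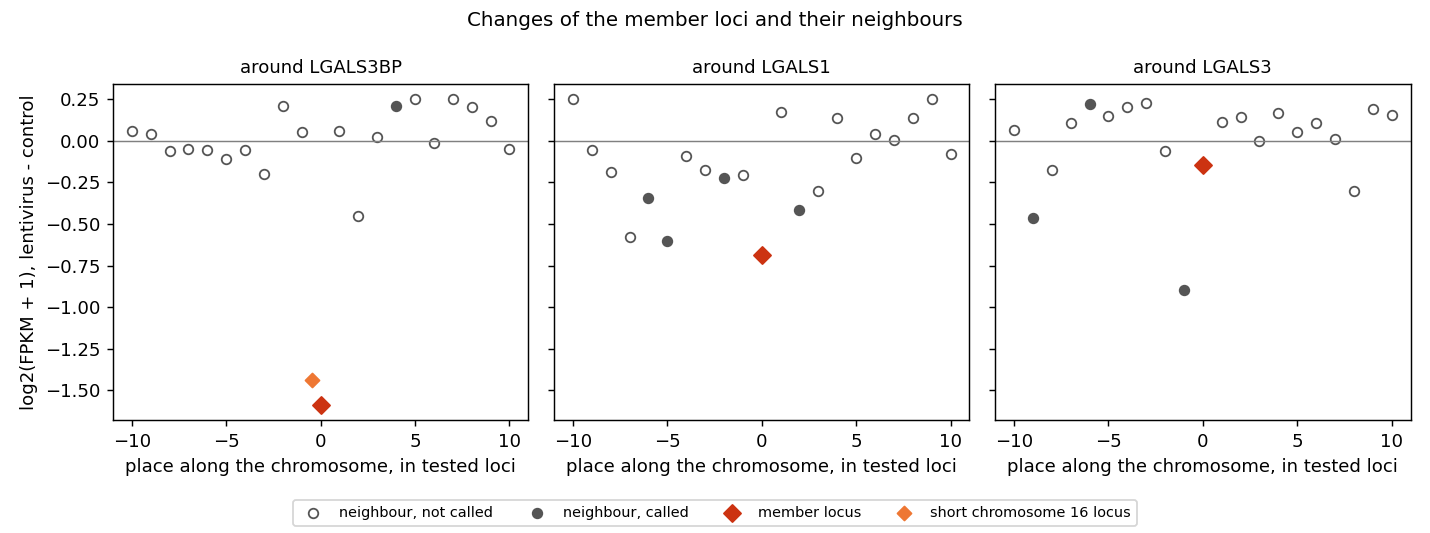
Change in log2(FPKM + 1), lentivirus minus control (vertical axis), of each member locus (diamond at place 0) and the 10 tested loci on each side of it in chromosome order (horizontal axis). Filled circles are neighbours called by limma; the LGALS3BP and short loci lie near -1.5 while their neighbours lie between -0.45 and 0.25.

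About as many rows ran opposite to LGALS3BP over the 6 libraries as ran with it. Its Pearson's r over the 6 libraries, on log2(FPKM + 1), was 0.98 with the short locus, 0.92 with the LGALS1 locus and 0.71 with the LGALS3 locus. These correlations share their libraries and are a description. LGALS3BP was picked for its fall, and its change of -1.59 is large against its within-group SD of 0.088. An r near 1 or -1 with it therefore mostly restates the gap between the groups. Among 6496 rows that overlap no other and have a mean of at least 5 FPKM, 148 had r of at least 0.98 and 151 had r of -0.98 or lower, and the median r was -0.0096. The row most like it was ENSP00000404854 (chromosome 8, 127669718 to 127714679), with r = 0.999 over 6 libraries and means of 81.5 ± 5.94 and 29.7 ± 1.97 FPKM (SD, n = 3). Next was ENSP00000256257 (chromosome 8, 31631553 to 31649818), with r = 0.999 and a control mean of 23.9 ± 1.77 FPKM (SD, n = 3), 1.99-fold above its lentivirus mean. The table pairs neither accession with a gene symbol.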

How the data were processed

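Poly-A RNA of 6 COS-1 libraries, 3 control and 3 lentivirus, was sequenced. The authors deposited 1 table of FPKM values, 1 column per library and 1 row per feature, with column sums of 2094230 to 2206925. Cufflinks 2.1.1, Cuffdiff, Bowtie2 2.1.0.0, TopHat2 2.0.10 and CASAVA are named, per the submitters' processing notes. What each did, the genome build and any scaling between libraries: not given in the sources used here. FPKM keeps no read counts, so depth is unknown. A fit that divides reads among overlapping rows can move FPKM from 1 row to another, and strand is not given.

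Groups came from the sample titles. Rows whose positions overlap, directly or through other rows, were summed to loci. Rows or loci with a mean of at least 1 FPKM were tested on log2(FPKM + 1), which understates changes of low rows, with limma 3.58.1 (intensity trend, group as the only term) in R 4.3.3. P-values were two-sided and adjusted by Benjamini-Hochberg over all tested rows or loci, with calls at an adjusted p under 0.05. Separate cultures are not stated in the labels, so a p-value reflects the spread of these libraries alone, and that spread may be technical.

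The members and lists were chosen with earlier results of these data known. Named were all members, the rows overlapping or next to them, the 10 loci on each side, and the 2 rows most like LGALS3BP by Pearson's r. The galectin and partner lists could not be counted without symbols. Alternatives were other pseudocounts, filters and scalings, no intensity trend, a replicate block and leaving out each library.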

Additional observations from a re-analysis of the deposited data

How the results depend on the processing

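The chromosome 16 interval and the LGALS3BP row kept their size: over all alternatives run their log2(FPKM + 1) changes ran from -1.60 to -1.49 and from -1.65 to -1.50. The LGALS1 locus, whose alternatives were applied after the data were seen, kept its direction in all and its call in all but the fits without lentivirus replicates 2 and 3 and the sum without the row from 20379236 to 20383305 (-0.41, limma adjusted p = 0.374); without 1 library its change ran from -0.77 to -0.53 (limma adjusted p = 0.0188 to 0.0608), and the remaining settings gave adjusted p-values of 0.00402 to 0.0333. The LGALS3 locus stayed below zero and not called, with limma adjusted p-values of 0.164 to 0.434. The LGALS1 row, near 0 in most libraries, had a change of -0.61, with -2.12 and -0.17 at pseudocounts of 0.1 and 5 and -0.92 to -0.24 without 1 library. The LGALS3 row's change of -0.19 ran from -0.60 to 0.16 without 1 library. The 1842 calls over all rows became 1220 with no filter and 48 to 108 without 1 library. The 3134 calls over all loci became 1443 to 2232 without 1 library. With a replicate block in the model, limma called 0 rows (6084 at an unadjusted p under 0.05) and 1774 loci; LGALS1 had an adjusted p of 0.0333 and LGALS3 of 0.166. The numbers share no stated source: deviations of same-numbered libraries correlated at 0.077, 0.027 and -0.019 over loci, and not every library correlated best with its own number. Depth is unknown, so counting error was not separated from other spread.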
